A study of Mus musculus with 12 samples.

Results

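The genes of 6 cyclin-dependent kinase (CDK) inhibitors, *Cdkn1a*, *Cdkn1b*, *Cdkn1c*, *Cdkn2a*, *Cdkn2b* and *Cdkn2c*, were followed in mouse embryonic fibroblasts (MEFs) that lacked Sirt6, with or without the NF-κB subunit RelA, during treatment with TNF-α. They were chosen by name and carried 12 of the 25697 probes on the array. Of these, 8 probes of 5 genes had an intensity of 100 or more on some array, the detection value of the study, and these 5 genes were among the 6096 genes tested, of 16593 named genes. *Cdkn1b* did not reach it. Total RNA was measured in wild-type, *Sirt6-/-* and *Sirt6-/-RelA-/-* MEFs before TNF-α (0 h) and after treatment with 20 ng/mL TNF-α for 1.5, 6 and 24 h. Each of the 12 conditions was hybridized to 1 Illumina bead array. The wild-type MEFs carried neither deletion, the *Sirt6-/-* MEFs lacked the histone deacetylase Sirt6, and the *Sirt6-/-RelA-/-* MEFs lacked Sirt6 and RelA, so that no group lacked RelA alone. The cells came from embryos at day 13.5 and had been passaged before treatment. No condition had a replicate, and within a genotype the labels do not name separate embryos or cultures for the 4 times. Genotype and culture therefore cannot be told apart, and the p-values below measure only how steady a difference was over the 4 times.

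CDK inhibitors hold the cell cycle by binding CDKs or their complexes with cyclins. The Cip/Kip proteins p21 (*Cdkn1a*), p27 (*Cdkn1b*) and p57 (*Cdkn1c*) bind cyclin-CDK complexes broadly, whereas the INK4 proteins p16 (*Cdkn2a*), p15 (*Cdkn2b*) and p18 (*Cdkn2c*) bind the CDKs that work with the D-type cyclins. *Cdkn1a* is a textbook target of p53, *Cdkn1c* is an imprinted gene, and *Cdkn2a* also encodes Arf, which stabilizes p53, from a separate first exon; *Cdkn2a*, *Cdkn2b* and p53 are known for the arrest of fibroblasts in long culture.

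The start sites of these genes are shown first, because the array reads *Cdkn2a*, *Cdkn1a* and *Cdkn2c* as single genes although each has 2 annotated starts. RefSeq promoter entries (mouse build GRCm38.p6) were matched for 5 of the 6 genes. The following are the 250 bases upstream of a start, written 5′ to 3′ on the strand of the gene, and capitals mark a motif match. They are the upstream start of *Cdkn1a* (chr17:29090729-29090978, plus strand), the upstream start of *Cdkn2a*, from which Arf is known to be made (chr4:89294620-89294869, minus strand), the downstream start of *Cdkn2a*, known for p16 (chr4:89282193-89282442, minus strand), and the start of the neighbouring gene *Cdkn2b* (chr4:89311033-89311282, minus strand).
Cdkn1a upstream start: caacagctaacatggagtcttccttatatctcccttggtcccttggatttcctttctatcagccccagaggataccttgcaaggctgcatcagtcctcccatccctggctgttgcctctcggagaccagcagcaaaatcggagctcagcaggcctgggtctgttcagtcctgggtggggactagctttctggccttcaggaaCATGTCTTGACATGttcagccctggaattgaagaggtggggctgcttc
Cdkn2a upstream start: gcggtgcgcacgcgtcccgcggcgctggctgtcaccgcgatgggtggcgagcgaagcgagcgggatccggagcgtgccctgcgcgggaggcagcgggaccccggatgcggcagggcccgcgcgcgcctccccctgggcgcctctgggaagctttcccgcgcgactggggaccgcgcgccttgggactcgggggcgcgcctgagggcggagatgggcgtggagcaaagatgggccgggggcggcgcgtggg
Cdkn2a downstream start: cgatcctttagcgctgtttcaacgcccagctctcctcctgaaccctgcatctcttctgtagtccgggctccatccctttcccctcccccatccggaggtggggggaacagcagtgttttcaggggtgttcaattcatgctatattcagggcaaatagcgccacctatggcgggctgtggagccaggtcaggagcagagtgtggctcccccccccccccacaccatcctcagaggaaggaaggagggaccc
Cdkn2b start: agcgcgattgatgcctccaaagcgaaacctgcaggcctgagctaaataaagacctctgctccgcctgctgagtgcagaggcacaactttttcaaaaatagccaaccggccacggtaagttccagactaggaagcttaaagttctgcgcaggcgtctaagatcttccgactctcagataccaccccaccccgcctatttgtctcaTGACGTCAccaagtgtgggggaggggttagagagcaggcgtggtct

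The *Cdkn1a* window held a pair of CATG cores spaced as in a p53 response element (CATGNNNNNNCATG, which reads the same on each strand), beginning 48 bases before the start, and 0.490% of the 32851 windows of this length held such a pair. The second start of *Cdkn1a* lay 2790 bases downstream, and its window held a GC box (GGGGCGGGG, searched on both strands), which was found in 10.4% of windows. The *Cdkn2b* window held a cyclic AMP response element (TGACGTCA, its own reverse complement), beginning 46 bases before the start, found in 1.55% of windows. A κB consensus, the DNA motif read by RelA, was found in 7.25% of windows and in none of those of the 5 genes, which says only that these letters were not in the 250 bases searched. The 2 starts of *Cdkn2a* lay 12427 bases apart and differed in base composition, with 78.4% G or C and 40 CpG dinucleotides upstream of the Arf start and 60.0% and 7 upstream of the p16 start, against medians of 52.4% and 6 over all windows. The 2 starts of *Cdkn2c* lay 1384 bases apart, with 77.2% G or C and 29 CpG dinucleotides before the upstream start and 42.8% and 6 before the downstream start, and neither window held a motif searched. No binding was measured on these arrays.

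The deleted genes were looked at before the inhibitors. The 3 probes of *Sirt6* lay between 18.6 and 44.2 on the wild-type arrays, themselves under 100, and between -8.50 and 11.96 on the arrays of both knockouts, while *Rela* was 674 to 1303 on wild-type, 1025 to 1446 on *Sirt6-/-* and 172 to 187 on *Sirt6-/-RelA-/-* arrays. Intensities were read as linear from their range and from values below 0, since their scale is not stated, and each fold rests on that reading. Upper quartiles of intensity were 147 to 152 on all 12 arrays. None of the 11 fibroblast markers on the array was under 16 on all 4 arrays of any genotype, and their summed intensity was 27801 to 33808 on wild-type, 20333 to 26217 on *Sirt6-/-* and 25625 to 30972 on *Sirt6-/-RelA-/-* arrays. Of the 10 tested, 5 were lower and 1 higher in *Sirt6-/-* than in wild-type MEFs (17.0% and 25.1% of all genes). On the log2 scale *Pdgfra* was at -2.79, *Lum* at -2.27, *Col1a2* at -1.32 and *Thy1* at -0.81. *Dcn* was the one higher (0.61), and *Vim* (0.07), *Col3a1* (-0.04), *Pdgfrb* (-0.08) and *S100a4* (-0.23) were not called. Between both knockouts 4 had their higher level in *Sirt6-/-RelA-/-* and 1 in *Sirt6-/-* MEFs (16.1% and 15.0% of all genes). Of 5 tested smooth muscle markers, 4 were higher and none lower in *Sirt6-/-* than in wild-type MEFs (25.1% and 17.0% of all genes), among them *Myh11* (2.45). The part of these markers' cells in the differences of the inhibitors was not tested. The Y-linked genes *Eif2s3y* and *Kdm5d* were under 16 on every wild-type and *Sirt6-/-* array. They entered the test through the *Sirt6-/-RelA-/-* arrays, where they were high, so the filter set that direction. The X-linked RNA *Xist* was under 16 on every *Sirt6-/-RelA-/-* array. Cultures of *Sirt6-/-RelA-/-* MEFs thus differed from the others in these transcripts too. In comparisons with them, a difference of sex cannot be told apart from one of genotype.

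Of the 5 inhibitor genes tested, 4 differed between *Sirt6-/-* and wild-type MEFs, 3 of them higher (*Cdkn1c*, *Cdkn2a* and *Cdkn1a*) and 1 lower (*Cdkn2c*) in *Sirt6-/-* MEFs. The share of all tested genes called in this comparison was 42.2%, with 25.1% higher and 17.0% lower. The same 4 genes differed between *Sirt6-/-RelA-/-* and *Sirt6-/-* MEFs, each in the opposite direction, against 31.1% of all genes (16.1% higher and 15.0% lower), and these comparisons share the *Sirt6-/-* arrays. Only *Cdkn1c* of the 5 differed between *Sirt6-/-RelA-/-* and wild-type MEFs, against 20.6% of all genes. The median log2 difference of the 5 genes was 0.95, -0.80 and 0.15 in these comparisons, beside 0.06, 0.02 and 0.07 over all genes tested. Calls are adjusted p under 0.05 from limma by the Benjamini-Hochberg method over all tested genes, on log2 intensities with values under 16 set to 16 and with genotype and time as terms.

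**Figure D1:**
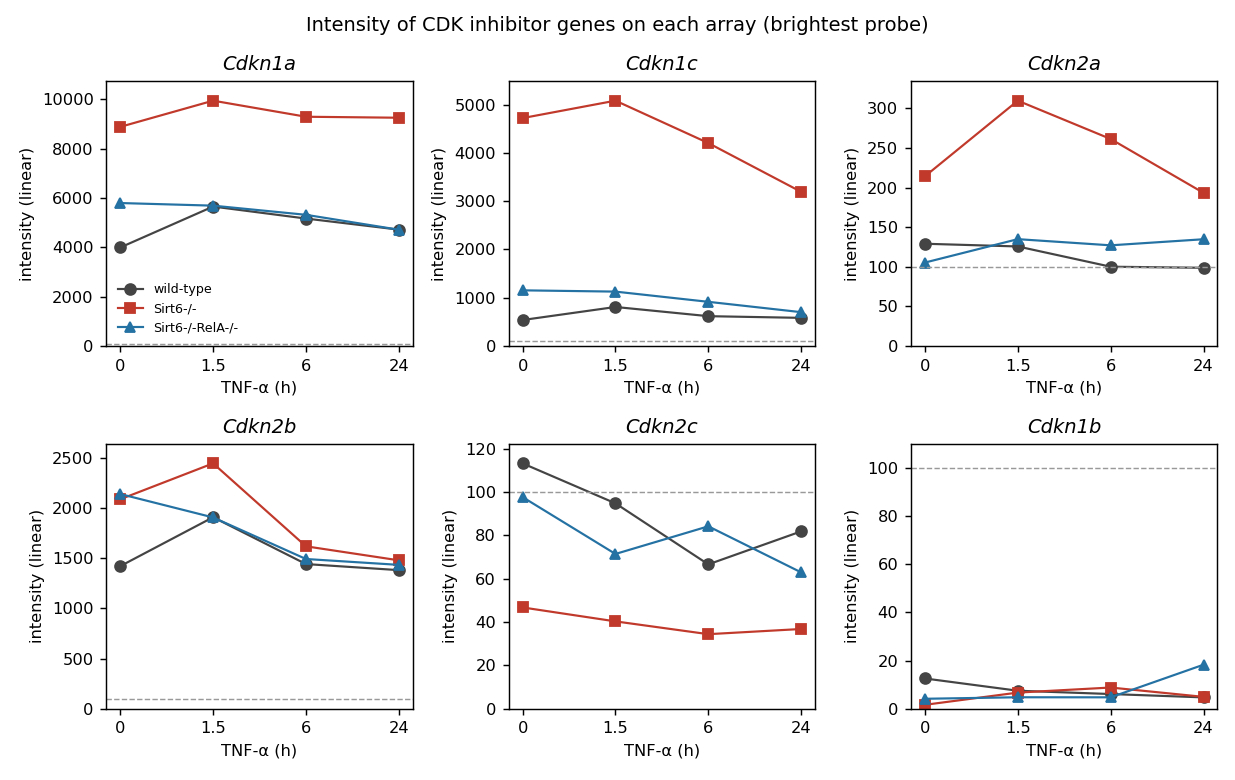
Intensity (linear scale) of the brightest probe of each CDK inhibitor gene against time in TNF-α (0, 1.5, 6 and 24 h, evenly spaced), with 1 point for each array and a dashed line at 100. The *Sirt6-/-* arrays lie above all others for *Cdkn1a*, *Cdkn1c* and *Cdkn2a* and below all others for *Cdkn2c*, the genotypes overlap for *Cdkn2b*, and *Cdkn1b* stays under 100.

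*Cdkn1a*, which encodes p21, the inhibitor that p53 induces after DNA damage, was measured by 3 probes. The brightest had intensities of 3997, 5656, 5169 and 4720 at 0, 1.5, 6 and 24 h in wild-type MEFs. In *Sirt6-/-* MEFs they were 8885, 9947, 9295 and 9255, and in *Sirt6-/-RelA-/-* MEFs 5798, 5692, 5321 and 4716. All 4 *Sirt6-/-* arrays lay above the 8 others, and the wild-type and *Sirt6-/-RelA-/-* arrays overlapped. *Cdkn1a* rose 1.93-fold from wild-type to *Sirt6-/-* MEFs (log2 difference 0.95, standard error 0.11, limma adjusted p = 1.69e-05, above at each of the 4 times) and was 1.74-fold lower in *Sirt6-/-RelA-/-* than in *Sirt6-/-* MEFs (-0.80, standard error 0.11, adjusted p = 0.000118, below at each of the 4 times). Between *Sirt6-/-RelA-/-* and wild-type MEFs the log2 difference was 0.15 with a 95% interval of -0.09 to 0.38 (adjusted p = 0.360), and it came from 0 h, where it was 0.54, since it was at most 0.04 at the 3 later times. This value turned to -0.039 (adjusted p = 0.837) after quantile normalization.

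The second *Cdkn1a* probe gave 998 to 1240 on wild-type, 1610 to 2065 on *Sirt6-/-* and 1385 to 1457 on *Sirt6-/-RelA-/-* arrays, and the third gave 540 to 603, 819 to 1279 and 600 to 742. Each placed the *Sirt6-/-* arrays above all others. Fitted as single probes, they gave log2 differences of 0.75 and 0.96 between *Sirt6-/-* and wild-type MEFs (adjusted p = 5.60e-05 and 5.36e-05 from limma over all probes) and of -0.43 and -0.75 between *Sirt6-/-RelA-/-* and *Sirt6-/-* MEFs (adjusted p = 0.00506 and 0.000566). The probes disagreed in the remaining comparison. By the second probe the *Sirt6-/-RelA-/-* arrays did not overlap the wild-type arrays and were higher by 0.32 (standard error 0.10, adjusted p = 0.0370), whereas the brightest and the third probe made no call there (adjusted p = 0.265 for the third). Levels of different probes are not compared, since probes differ in brightness at equal RNA.

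*Cdkn1c*, an imprinted gene for p57 that restrains growth in the embryo, had the largest difference of the family. Its single probe read 540, 810, 619 and 584 at 0, 1.5, 6 and 24 h in wild-type MEFs. It read 4720, 5080, 4203 and 3192 in *Sirt6-/-* MEFs and 1154, 1128, 916 and 702 in *Sirt6-/-RelA-/-* MEFs. The lowest *Sirt6-/-* array was above every other array, and the 24 h array of *Sirt6-/-RelA-/-* MEFs fell within the range of the wild-type arrays. *Cdkn1c* rose 6.72-fold from wild-type to *Sirt6-/-* MEFs (log2 difference 2.75, standard error 0.12, limma adjusted p = 4.14e-09, above at each of the 4 times), the 15th highest of the 6096 genes tested. It was 4.43-fold lower in *Sirt6-/-RelA-/-* than in *Sirt6-/-* MEFs (-2.15, standard error 0.12, adjusted p = 7.20e-08), and this difference was steady over time, between -2.20 and -2.03.

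*Cdkn1c* was also the member that stayed above wild-type in *Sirt6-/-RelA-/-* MEFs, by 1.52-fold (log2 difference 0.60, standard error 0.12, adjusted p = 0.00509). The differences at the single times were 1.10 at 0 h, 0.48 at 1.5 h, 0.57 at 6 h and 0.27 at 24 h, higher at 4 of 4 times. The call was lost without a filter on dim genes (adjusted p = 0.0614) and was kept in the 25 other alternatives. Of 4 other genes tested from the imprinted domain of *Cdkn1c* on chromosome 7, *Cd81*, which encodes a tetraspanin, was higher in *Sirt6-/-* than in wild-type MEFs by 0.60 (adjusted p = 0.000803) and *Tssc4* by 0.40 (adjusted p = 0.0172), while *Igf2*, the embryonic growth factor, was 0.19 (adjusted p = 0.344) and *Nap1l4* 0.03 (adjusted p = 0.851). Another 8 genes of the domain on the array, among them *Kcnq1* and *Phlda2*, did not reach 100. Of 7 imprinted genes tested from elsewhere, 5 were higher and 2 lower in *Sirt6-/-* MEFs (25.1% and 17.0% of all genes), including *Ndn* (1.04) and the IGF2 receptor gene *Igf2r* (0.90) among those higher and *Dlk1* (-0.86), a ligand that holds back adipocyte differentiation, among those lower.

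*Cdkn1b*, which encodes p27, the Cip/Kip inhibitor of quiescent cells, was under 100 on every array. Its 3 probes lay between -13.9 and 18.3, around the level of background, and only 1 of the 36 values was above 16. All other values were set to the floor of 16, so differences between arrays could not be read, and the probes were called in no comparison when fitted without a filter (limma adjusted p from 0.676 to 1). An intensity this low does not show that the gene was silent, only that these probes did not measure it.

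**Figure D2:**
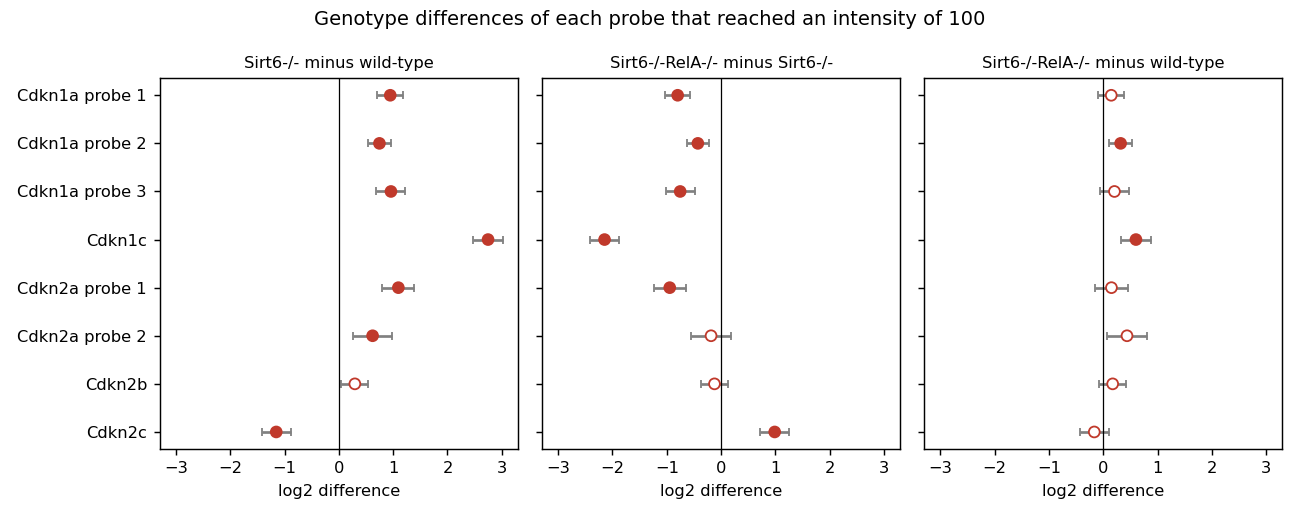
Log2 differences between genotypes (x axis) of the 8 probes of CDK inhibitor genes that reached an intensity of 100, from limma over all probes. Points are differences, bars are 95% intervals over the 4 times, and filled points have an adjusted p under 0.05. Probes of a gene are numbered from the brightest. All 3 *Cdkn1a* probes are higher in *Sirt6-/-* MEFs, the *Cdkn2a* probes differ in the middle panel, and *Cdkn1c* has the largest differences.

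*Cdkn2a* is the INK4 gene that holds p16 and Arf, and both of its probes are annotated to the same transcript, so p16 and Arf were not told apart. The brighter probe read 129, 126, 100.2 and 98.8 at 0, 1.5, 6 and 24 h in wild-type MEFs. It read 214, 310, 261 and 193 in *Sirt6-/-* MEFs and 105, 135, 127 and 135 in *Sirt6-/-RelA-/-* MEFs. The *Sirt6-/-* arrays did not overlap the others, and wild-type and *Sirt6-/-RelA-/-* arrays overlapped close to the detection value of 100. *Cdkn2a* rose 2.14-fold from wild-type to *Sirt6-/-* MEFs (log2 difference 1.10, standard error 0.14, adjusted p = 3.36e-05 from limma), 196th highest of 6096, and was 1.93-fold lower in *Sirt6-/-RelA-/-* than in *Sirt6-/-* MEFs (-0.95, standard error 0.14, adjusted p = 0.000179). The latter difference was -0.56 (adjusted p = 0.0103) with the mean of both probes. The difference between *Sirt6-/-RelA-/-* and wild-type MEFs was 0.15 with a 95% interval of -0.14 to 0.44 (adjusted p = 0.460).

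The dimmer *Cdkn2a* probe reached 100 on 1 array and gave a weaker picture. It read 47.2 to 58.6 on wild-type, 50.9 to 100.3 on *Sirt6-/-* and 60.8 to 91.2 on *Sirt6-/-RelA-/-* arrays, and the *Sirt6-/-* range covered that of *Sirt6-/-RelA-/-* MEFs. Its log2 difference was 0.62 between *Sirt6-/-* and wild-type MEFs (standard error 0.17, adjusted p = 0.0105) but 0.01 at 24 h. The array on which it reached 100 was a *Sirt6-/-* array, so it entered the test through the group in which it was high, and the call was lost without a filter (adjusted p = 0.129). The difference was -0.18 between *Sirt6-/-RelA-/-* and *Sirt6-/-* MEFs (95% interval -0.55 to 0.18, adjusted p = 0.437). The lower level of *Cdkn2a* in *Sirt6-/-RelA-/-* than in *Sirt6-/-* MEFs thus rests on the brighter probe.

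*Cdkn2b*, the neighbour of *Cdkn2a* that encodes p15 and responds to TGF-β, gave no call between genotypes. It read 1421, 1909, 1442 and 1382 at 0, 1.5, 6 and 24 h in wild-type MEFs. It read 2088, 2446, 1619 and 1479 in *Sirt6-/-* MEFs and 2140, 1907, 1493 and 1434 in *Sirt6-/-RelA-/-* MEFs. The 3 genotypes overlapped, and the spread between times within a genotype was larger than that between genotypes. The log2 difference between *Sirt6-/-* and wild-type MEFs was 0.29 (95% interval 0.05 to 0.54, adjusted p = 0.0546 from limma) and was 0.55, 0.36, 0.17 and 0.10 at the 4 times. It passed the threshold in 5 of 27 alternatives, where the adjusted p was 0.0347 to 0.0476. Between *Sirt6-/-RelA-/-* and *Sirt6-/-* MEFs it was -0.12 (95% interval -0.37 to 0.13, adjusted p = 0.453), and between *Sirt6-/-RelA-/-* and wild-type MEFs 0.17 (95% interval -0.07 to 0.42, adjusted p = 0.304). The difference between *Cdkn2a* and its neighbour was not tested. *Mtap*, the next gene of this stretch of chromosome 4, an enzyme of methionine salvage, differed by 0.11 between *Sirt6-/-* and wild-type MEFs (adjusted p = 0.434).

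*Cdkn2c*, which encodes p18, was the member that was lower in *Sirt6-/-* MEFs. Its brighter probe read 113, 94.8, 66.6 and 81.9 at 0, 1.5, 6 and 24 h in wild-type MEFs. It read 46.8, 40.3, 34.4 and 36.8 in *Sirt6-/-* MEFs and 97.7, 71.4, 84.2 and 62.9 in *Sirt6-/-RelA-/-* MEFs. All 4 *Sirt6-/-* arrays lay below the 8 others, which overlapped among themselves. *Cdkn2c* was 2.22-fold lower in *Sirt6-/-* than in wild-type MEFs (log2 difference -1.15, standard error 0.12, limma adjusted p = 8.60e-06, below at each of the 4 times) and 1.98-fold higher in *Sirt6-/-RelA-/-* than in *Sirt6-/-* MEFs (0.99, standard error 0.12, adjusted p = 5.82e-05). It reached 100 on the wild-type 0 h array alone and so entered the test through a group in which it was high, but the differences were called without a filter as well (adjusted p = 0.00225 and 0.00671). With an offset of 50 added to each intensity they shrank to -0.63 and 0.52 and remained called. Against wild-type MEFs, *Sirt6-/-RelA-/-* MEFs differed by -0.17 (95% interval -0.43 to 0.10, adjusted p = 0.360). The other *Cdkn2c* probe was between 0.25 and 21.3, and it was called in no comparison when fitted without a filter (adjusted p from 0.0799 to 1). All its wild-type and *Sirt6-/-* values were under 16 and set to that floor, so a difference between these genotypes could not be read from it. *Cdkn2d*, which encodes the remaining INK4 protein p19 and was not among the 6 genes, differed by -0.35 between *Sirt6-/-* and wild-type MEFs (adjusted p = 0.101).

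The response of the inhibitors to TNF-α was asked next. Fitted over wild-type and *Sirt6-/-* MEFs together, none of the 5 genes was called by limma at 1.5, 6 or 24 h, against 0.853%, 1.23% and 1.82% of all genes. At an unadjusted p under 0.05 the counts were 0, 1 and 1 of 5, and the gene was *Cdkn2c* each time, with log2 differences from 0 h of -0.60 at 6 h (standard error 0.16, adjusted p = 0.156) and -0.41 at 24 h (standard error 0.16, adjusted p = 0.364). For the brightest *Cdkn1a* probe the fitted differences were 0.33, 0.22 and 0.15 at the 3 times (adjusted p = 0.405, 0.710 and 0.753). The other *Cdkn1a* probes, fitted singly, did not share the rise. Their differences at 1.5, 6 and 24 h were 0.02, -0.06 and -0.30 by one and -0.05, -0.04 and -0.35 by the other. For *Cdkn2b* they were 0.33, -0.17 and -0.27 (adjusted p = 0.414, 0.772 and 0.580). The 95% intervals at 1.5 h reached 0.69 for *Cdkn1a*, 0.75 for *Cdkn1c*, 0.66 for *Cdkn2a* and 0.70 for *Cdkn2b*, so that changes of that size were not distinguished from none.

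**Figure D3:**
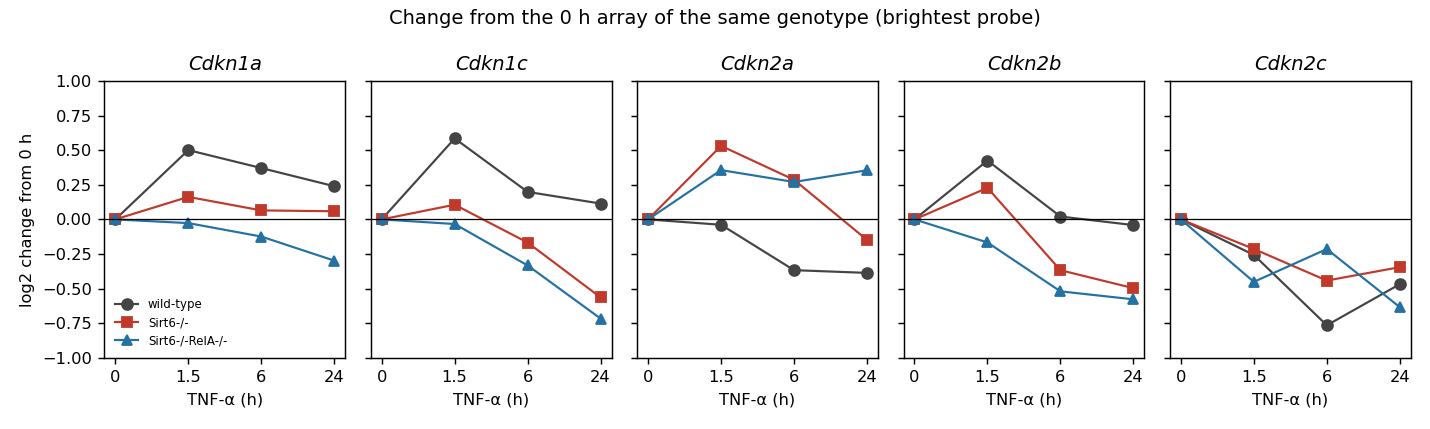
Log2 change of the brightest probe of each tested CDK inhibitor gene from the 0 h array of the same genotype, against time in TNF-α. Each point is a difference of 2 single arrays and has no error. Changes lie between -0.77 and 0.59, the *Sirt6-/-RelA-/-* line is the lowest for *Cdkn1a*, *Cdkn1c* and *Cdkn2b*, and *Cdkn2c* is below 0 in every genotype.

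Within single genotypes the changes had no replicate, and they are given for the brightest probe of each gene unless stated. In wild-type MEFs at 1.5 h the log2 change from 0 h was 0.50 for *Cdkn1a*, 0.59 for *Cdkn1c* and 0.43 for *Cdkn2b*, against -0.04 for *Cdkn2a* and -0.26 for *Cdkn2c*. In *Sirt6-/-* MEFs it was 0.16, 0.11 and 0.23 for the first 3 genes and 0.53 for *Cdkn2a*. In *Sirt6-/-RelA-/-* MEFs it was -0.03, -0.03, -0.17 and 0.36. The other *Cdkn1a* probes changed by -0.03 and 0.10 in wild-type MEFs at 1.5 h, so the change of 0.50 rests on the brightest probe. *Cdkn2c* was lower than at 0 h on all 9 TNF-α arrays, by 0.21 to 0.77 on the log2 scale. At 24 h *Cdkn1c* was at -0.56 in *Sirt6-/-* and -0.72 in *Sirt6-/-RelA-/-* MEFs but at 0.11 in wild-type MEFs. The difference of the TNF-α response (mean of the 3 times from 0 h) was called by limma for none of the 5 genes between *Sirt6-/-* and wild-type MEFs (0% of all genes, 0 of 5 at an unadjusted p under 0.05, adjusted p from 0.483 to 0.825) nor between *Sirt6-/-RelA-/-* and *Sirt6-/-* MEFs (0.0164% of all genes, 0 of 5 unadjusted, adjusted p = 0.998 for each). In the third pair, *Sirt6-/-RelA-/-* and wild-type MEFs, which was added after the data were seen, none of the 5 was called either (0.722% of all genes, 1 of 5 unadjusted, adjusted p from 0.185 to 0.920).

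The members varied together to different degrees over the 12 arrays, which share cultures and times, so the following correlations of log2 intensity are descriptions. *Cdkn1a* and *Cdkn1c* had a Pearson r of 0.98, *Cdkn1c* and *Cdkn2a* of 0.92 and *Cdkn1a* and *Cdkn2c* of -0.88. After the genotype means were removed, r was 0.74 for *Cdkn1a* and *Cdkn1c*, 0.23 for *Cdkn1c* and *Cdkn2a* and -0.11 for *Cdkn1a* and *Cdkn2c*, while *Cdkn1c* and *Cdkn2b* had 0.90 against 0.57 before. Most of the likeness of *Cdkn1a*, *Cdkn2a* and *Cdkn2c* was thus in the genotype means, and that of *Cdkn1c* and *Cdkn2b* was in the times. The tested genes most like *Cdkn1a* were *Serf1* (0.984), *Myl4* (0.982) and *H2ac18* (0.981), and those most like *Cdkn1c* were *Gm2a* (0.992), *Ccpg1* (0.986) and *Myl4* (0.986). For *Cdkn2a* they were *Stxbp2*, *Gm2a* and *Smpdl3a* (0.942 to 0.951), for *Cdkn2b* *Cmtm7*, *Htra1* and *Ebpl* (0.924 to 0.932), and for *Cdkn2c* *Ccn5*, *H2ax* and *Lgals3bp* (0.950 to 0.955). An r above 0.9 was reached by 228 other genes with *Cdkn1c* and 178 with *Cdkn1a*, but by 6 with *Cdkn2b*.

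Genes around the inhibitors in the cell cycle were taken as lists, chosen with earlier results of these data known. Of 7 tested p53 targets and partners, 5 were higher and none lower in *Sirt6-/-* than in wild-type MEFs (25.1% and 17.0% of all genes). Their median log2 difference was 0.70, against 0.06 over all genes. In *Sirt6-/-RelA-/-* relative to *Sirt6-/-* MEFs 5 were lower and none higher (15.0% and 16.1% of all genes, median of the list -0.51). *Mdm2*, the ubiquitin ligase of p53, was higher in *Sirt6-/-* MEFs by 1.24 (adjusted p = 1.00e-06), the proapoptotic gene *Pmaip1* by 2.24 (adjusted p = 1.19e-08), *Trp53inp1* by 1.27 (adjusted p = 6.48e-06) and *Ccng1* by 0.70 (adjusted p = 0.000155). *Mdm2* and *Pmaip1* also stayed above wild-type in *Sirt6-/-RelA-/-* MEFs, by 0.71 (adjusted p = 0.000466) and 0.88 (adjusted p = 0.000214), a comparison in which the brightest probe of *Cdkn1a* made no call.

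Of 8 tested cyclins and CDKs, 1 was higher and 3 were lower in *Sirt6-/-* MEFs, a share near the 42.2% of all genes called. *Ccna2*, the cyclin of DNA synthesis, was lower by 1.48 on the log2 scale (log2 difference -1.48, adjusted p = 0.000228), the mitotic kinase gene *Cdk1* by 1.13 (-1.13, adjusted p = 2.24e-05) and *Ccne2* by 0.96 (-0.96, adjusted p = 5.76e-05), and *Ccnd3*, a D-type cyclin, was higher by 0.32 (adjusted p = 0.0332). In *Sirt6-/-RelA-/-* relative to *Sirt6-/-* MEFs 5 of the 8 cyclins and CDKs were higher and 1 lower (16.1% and 15.0% of all genes). Their median log2 difference there was 0.54. Of 17 tested proliferation genes, 16 were lower and none higher in *Sirt6-/-* than in wild-type MEFs (17.0% and 25.1% of all genes, median of the list -1.08). In *Sirt6-/-RelA-/-* relative to *Sirt6-/-* MEFs 16 were higher and none lower (16.1% and 15.0% of all genes, median of the list 1.01). Examples are the mitotic kinase gene *Plk1* (-3.13 and 1.11), thymidine kinase *Tk1* (-2.00 and 1.63), *Mybl2* (-1.57 and 1.49) and survivin *Birc5* (-1.53 and 1.30), each called in both comparisons. *Cdkn2c*, an inhibitor, had the direction of these proliferation genes and not that of *Cdkn1a*, *Cdkn1c* and *Cdkn2a*. Of the 17 genes, 2 were lower in *Sirt6-/-RelA-/-* MEFs relative to wild-type, among them *Plk1* (-2.03, adjusted p = 7.49e-07). In this comparison 20.6% of all genes were called in either direction.

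**Figure D4:**
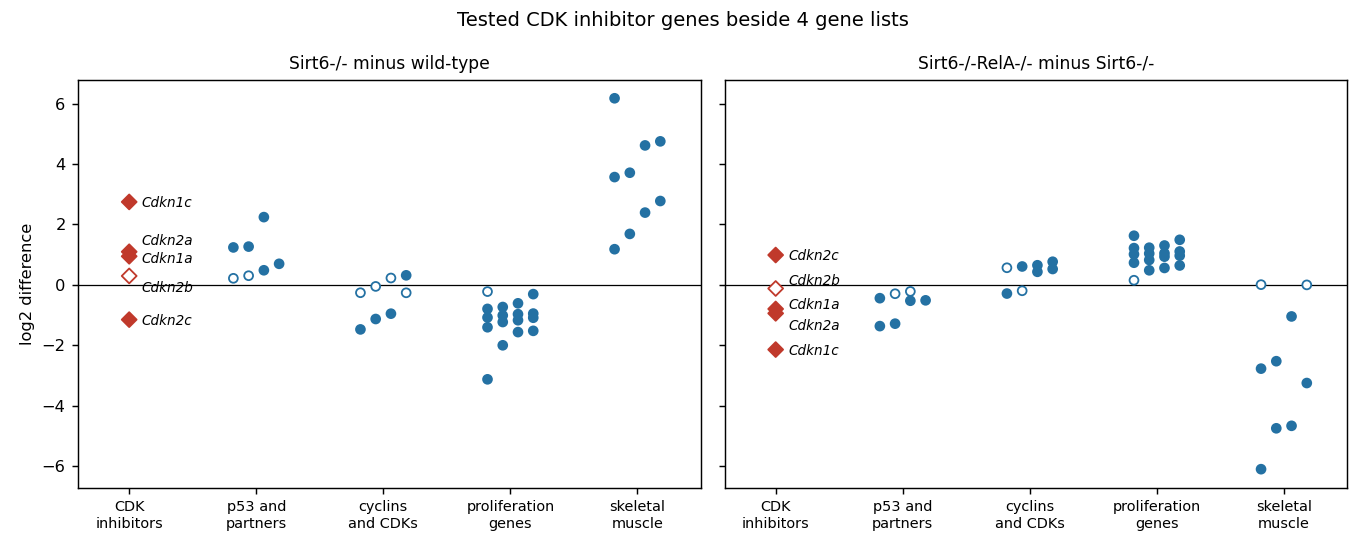
Log2 differences of the 5 tested CDK inhibitor genes (diamonds) and of the tested genes of 4 lists (circles) between *Sirt6-/-* and wild-type MEFs (left) and between *Sirt6-/-RelA-/-* and *Sirt6-/-* MEFs (right), which share the *Sirt6-/-* arrays. Filled points have an adjusted p under 0.05. In the left panel 16 of 17 proliferation genes are filled and below 0, as is *Cdkn2c*. There 5 of 7 p53 targets and partners and 9 of 9 skeletal muscle genes are filled and above 0, as are *Cdkn1a*, *Cdkn1c* and *Cdkn2a*. Of all tested genes, 25.1% were called higher and 17.0% lower in that comparison. The skeletal muscle genes *Actc1*, *Tnnc2* and *Myl1* entered the test through the *Sirt6-/-* arrays, where they were high.

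Regulators of the inhibitors were counted in the same way. Among 8 tested pocket protein and E2F genes, 2 had higher and 2 lower levels in *Sirt6-/-* MEFs, with *Rb1*, the substrate of the CDKs, higher by 0.64 (adjusted p = 0.000646) and *E2f4* lower (-0.66, adjusted p = 0.0104). Of 14 tested Polycomb and other regulators of the *Cdkn2a* locus, 2 were higher and 3 lower, among them *Kdm6b*, the demethylase that removes the Polycomb mark (0.64, adjusted p = 0.00770), and *Ezh2*, the methyltransferase that writes it (-0.51, adjusted p = 0.00321). *Ezh2* was higher again in *Sirt6-/-RelA-/-* than in *Sirt6-/-* MEFs (0.50, adjusted p = 0.00526). Of 6 tested genes for the degradation of Cip/Kip proteins, 1 was called, *Skp2*, the receptor that targets p27 (-0.48, adjusted p = 0.0109). Of 12 tested genes of the FoxO and TGF-β inputs, 2 were higher and 1 lower in *Sirt6-/-* MEFs, with *Tgfb2* at 0.86 (adjusted p = 1.48e-05), *Klf6* at 0.34 (adjusted p = 0.0106) and *Myc*, which represses *Cdkn1a* and *Cdkn2b*, at -0.54 (adjusted p = 0.0208). These shares are to be read beside the 42.2% of all genes called.

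Skeletal muscle and macrophage markers also differed between these genotypes. Of 17 skeletal muscle markers on the array, 9 were tested. All 9 had higher levels in *Sirt6-/-* than in wild-type MEFs (25.1% of all genes). Of them, 7 were lower in *Sirt6-/-RelA-/-* than in *Sirt6-/-* MEFs (15.0% of all genes). *Actc1* and *Tnnc2* were under 16 on every wild-type and *Sirt6-/-RelA-/-* array. They entered the test through the *Sirt6-/-* arrays, where they were high, so the filter set their directions. *Myl1* was under 16 on every wild-type array and differed by 0.07 on the log2 scale between *Sirt6-/-RelA-/-* and wild-type MEFs. It therefore also entered the test through the *Sirt6-/-* arrays, and the filter set its directions too. The summed intensity of the 17 was 2863 to 4199 on wild-type, 10157 to 11978 on *Sirt6-/-* and 6885 to 8681 on *Sirt6-/-RelA-/-* arrays. *Myod1* and *Myf5*, which define myoblasts, were under 16 on every array, and *Myog* did not reach 100. *Cdkn1a* and *Cdkn1c* are also known to rise when myoblasts leave the cell cycle, and the part of these cells in the differences was not tested. Of 8 macrophage and blood cell markers, 4 were tested. Against wild-type MEFs, all 4 were called with reduced levels in *Sirt6-/-* MEFs (17.0% of all genes). Sums of the 8 markers were 966 to 2054 on wild-type, 201 to 510 on *Sirt6-/-* and 333 to 524 on *Sirt6-/-RelA-/-* arrays. *Ptprc* and *Itgam* were under 16 on every array. The part of macrophages and blood cells was not tested either. In bulk RNA, fewer cells of a type and less RNA per cell cannot be told apart.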

How the data were processed

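Total RNA was labelled with Cy5 and hybridized to Illumina mouse bead arrays. The deposited intensity values were made by the authors. Their scale and scaling method are not given in the sources used here, and they were read as linear and background subtracted from their range and from the 17.7% of values below 0. The submitters' processing notes name GenomeStudio, and its settings are not given in the sources used here. The names of the 12 signal columns in a second, non-normalized table match no sample, so that table was left out. A floor of 16 was applied before the log2 transformation. Of 25697 probes, 23978 had a gene symbol and 1719 had none. Genes reaching 100 on any array were kept, by their brightest probe (6096 genes), and limma 3.58.1 in R 4.3.3 was fitted with genotype and time (6 residual degrees of freedom). For TNF-α effects, *Sirt6-/-RelA-/-* MEFs had time terms of their own (3 residual degrees of freedom), and differences of response from genotype by TNF-α (6). The number of arrays limits the precision. Every probe was also fitted singly. Fits were tested on simulated data. Alternatives covered the filter, floor, scaling, probes, variance prior, terms and arrays left out. The members and lists were chosen with earlier results of these data known. Named genes are the members, the 3 most correlated genes of each, and from each list up to 4 with the largest difference between *Sirt6-/-* and wild-type MEFs. Other genes named from the lists were chosen after their values were seen. Promoter windows are from RefSeq (GRCm38.p6), and figures were drawn with matplotlib 3.10.9.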

Additional observations from a re-analysis of the deposited data

Results flagged for a closer look

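In 3 of the 5 tested inhibitor genes the 3 TNF-α arrays of one genotype all lay above their 0 h array while those of another all lay below it. For *Cdkn1a* this held for wild-type MEFs (higher) against *Sirt6-/-RelA-/-* MEFs (lower), and the difference of the mean response was -0.52 on the log2 scale (standard error 0.22, unadjusted p = 0.0365, adjusted p = 0.185 from limma). It also held for *Sirt6-/-* MEFs against *Sirt6-/-RelA-/-* MEFs, with a difference of -0.25 (adjusted p = 0.998). The other *Cdkn1a* probes gave 0.21 and 0.16 for the first of these differences, the opposite direction to the brightest probe (adjusted p = 0.646 and 0.792). For *Cdkn1c* the difference between *Sirt6-/-RelA-/-* and wild-type MEFs was -0.66 (standard error 0.41, adjusted p = 0.345). For *Cdkn2a*, where wild-type MEFs were lower than at 0 h and *Sirt6-/-RelA-/-* MEFs higher, it was 0.59 (standard error 0.32, adjusted p = 0.286), and 0.38 by its dimmer probe (adjusted p = 0.668). None of these differences passed the threshold, and each rests on 1 array at 0 h for each genotype. How many of all tested genes had such opposite directions was not counted, so the 3 of 5 is a description only. The comparison of responses between *Sirt6-/-RelA-/-* and wild-type MEFs was added after the data were seen, and 0.722% of all genes were called in it.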

How the results depend on the processing

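The number of inhibitor genes called was kept under each alternative, except that it was 0 between *Sirt6-/-RelA-/-* and wild-type MEFs without a filter (main value 1), 5 between *Sirt6-/-* and wild-type MEFs in 4 alternatives where *Cdkn2b* also passed, and 3 between *Sirt6-/-RelA-/-* and *Sirt6-/-* MEFs with a filter of 200. That filter left *Cdkn2c* untested, and its 4 genes called between *Sirt6-/-* and wild-type MEFs had *Cdkn2b* in place of *Cdkn2c*. The log2 difference of *Cdkn1c* between *Sirt6-/-* and wild-type MEFs was 2.60 to 2.85, that of *Cdkn1a* 0.83 to 0.99, that of *Cdkn2a* 0.84 to 1.23 and that of *Cdkn2c* -1.27 to -0.63, called in each of 27 alternatives (26 for *Cdkn2c*). *Cdkn1a* changed sign to a log2 difference of -0.039 between *Sirt6-/-RelA-/-* and wild-type MEFs after quantile normalization, and was called in neither case. Counts over all genes moved more, and the causes were not tested. In the comparison of *Sirt6-/-RelA-/-* with wild-type MEFs 676 genes were called without a filter and 484 to 1428 with a time or an array left out, against 1254. Between *Sirt6-/-RelA-/-* and *Sirt6-/-* MEFs the range with arrays left out was 1144 to 2433, against 1897. For TNF-α at 1.5, 6 and 24 h, 2, 1 and 0 genes were called without a filter, against 52, 75 and 111. The ranges with arrays left out were 22 to 593, 34 to 340 and 52 to 444, the highest in each case without the *Sirt6-/-* 0 h array. At 24 h the count was 71 with a filter of 50, and at 1.5 h it was 16 with time terms shared by all genotypes. For the difference of TNF-α response between *Sirt6-/-* and wild-type MEFs, 229 genes were called without a filter, 1 with a filter of 200, 3 with every probe as a feature and 0 to 5 with arrays left out, against 0. Between *Sirt6-/-RelA-/-* and *Sirt6-/-* MEFs it was 153 without a filter, 0 to 7 with arrays left out, and 0 with a filter of 50, with quantile normalization, with arrays centred on their median, with every probe or with the mean of probes, against 1. Leaving out a 0 h array could not be fitted for every difference of response. No paired analysis was possible because each condition has a single array and no replicate number. The time term compares genotypes within each time. The number of arrays and the absence of repeated cultures limit every comparison, and values near or under 100, as for *Cdkn2a* and *Cdkn2c*, lie close to background.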

Other observations

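Among 10 tested genes known from the secretions and nuclei of senescent cells, 3 were higher and 2 lower in *Sirt6-/-* than in wild-type MEFs, near the 42.2% of all genes called (25.1% higher and 17.0% lower), and their median log2 difference was -0.33, against 0.06 over all genes. *Igfbp3*, a binding protein of insulin-like growth factors, was higher by 2.15 (limma adjusted p = 1.51e-05, standard error 0.24) and the chromatin protein gene *Hmgb2* was lower (-1.19, standard error 0.13, adjusted p = 8.15e-06), and both were reversed in *Sirt6-/-RelA-/-* MEFs relative to *Sirt6-/-* MEFs (-2.00 and 1.22, adjusted p = 4.89e-05 and 1.17e-05). The chemokine gene *Cxcl1* and the protease gene *Mmp3* had differences of -0.89 and -0.94 between *Sirt6-/-* and wild-type MEFs (adjusted p = 0.113 and 0.198) but were lower in *Sirt6-/-RelA-/-* than in *Sirt6-/-* MEFs (-2.07 and -2.94, adjusted p = 0.00268 and 0.00150). The list was chosen with earlier results of these data known.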
